A study of Mus musculus with 18 samples.

Results

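Knockout (KO) and wild-type (WT) macrophages were compared 45 min after transcription had been blocked. The comparison rests on 6 of the 18 arrays of the series, chosen by the genotype and time in their labels, 3 for each genotype. All cells were macrophages of C57Bl/6 mice, grown from bone marrow in medium with M-CSF, the growth factor that drives macrophage formation, and all were stimulated with lipopolysaccharide (LPS), a bacterial cell wall component, for 3 h. The KO genotype is TTP-/-, the loss of tristetraprolin, which Zfp36 encodes, and WT cells carried no named allele. After LPS, both genotypes received fresh medium with actinomycin D to stop transcription and SB203580 to inhibit the kinase p38. The time without transcription is thus also the time under p38 inhibition, in both genotypes. The labels do not state which part of Zfp36 was removed, the age of the mice, or whether each replicate is an animal or culture of its own. The p-values therefore weigh differences against the spread of these samples, part or all of which may be technical.

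Tristetraprolin is an RNA-binding protein that attaches to AU-rich elements in the 3' untranslated regions of many cytokine mRNAs and brings them to the deadenylases that start their degradation. It is induced by LPS, and phosphorylation downstream of p38 lowers its activity. Mice without the protein are known for a systemic inflammation driven by TNF. With transcription off, an mRNA level at 45 min reflects the level at the start and the share degraded since, so differences at 45 min are set beside those at 0 min, measured on other arrays of the same genotypes.

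Levels are intensities on a linear scale, or their log2, and differences are KO minus WT on the log2 scale with the standard error of the fit. The median intensity of the 6 arrays was 7.71 to 8.13, and arrays of the same group correlated at 0.966 to 0.993 over genes. Of 19454 genes, 10258 reached a signal limit set at an intensity of 8.16 (log2 3.03) in at least 1 group and were tested. Number 3 of each group carries lower sample numbers in its title than numbers 1 and 2, and same-numbered KO and WT arrays deviated together, as did arrays numbered 1 and 2 across genotypes, so a fit with the replicate number as a block is given beside the fit without it. All 11 measured macrophage markers were above the limit in both genotypes, with summed intensities of 14034 to 15919 in WT and 13918 to 16127 in KO. None of 11 markers of T, B and NK cells reached the limit in either genotype, and 1 of 11 neutrophil markers did. Of 9 fibroblast and stroma markers, 4 reached it in WT and 5 in KO, with summed intensities of 71.5 to 75.8 and 71.7 to 85.4. Of 6 erythroid and megakaryocyte markers, 2 reached it in each genotype. The brighter of these, Pf4, had mean log2 intensities of 8.23 in WT and 8.61 in KO. In replicates 1, 2 and 3 its levels were 8.05, 8.10 and 8.55 in WT and 7.95, 8.17 and 9.69 in KO. In RNA from whole cultures, fewer cells of a kind and less RNA per cell cannot be told apart.

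Zfp36 mRNA, the product of the targeted gene, gave signal in both genotypes. At 45 min its intensities in replicates 1, 2 and 3 were 29.0, 30.6 and 22.2 in WT and 47.8, 34.4 and 41.1 in KO. All KO arrays were above all WT arrays, with a difference of 0.59 ± 0.32 that did not pass (limma adjusted p 0.9998, and 0.708 with the replicate block). At 0 min the order was opposite, with 247, 232 and 139 in WT against 76.2, 108 and 112 in KO. From 0 to 45 min, 13.5% of the Zfp36 signal was left in WT (95% confidence interval 8.49% to 21.5%) and 41.8% in KO (26.3% to 66.6%). The difference between these changes, 1.63 ± 0.45, had an unadjusted p of 0.00207 but an adjusted p of 0.99997 in limma. Signal in KO arrays can come from any part of the transcript that the deletion left, so these values do not check the genotype labels.

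Tnf and Cxcl2 passed the test without the block, both higher in KO. They were 2 of 10258 genes, 0.0195%, and 0 genes were lower. At an unadjusted p under 0.05 the limma fit held 182 higher (1.77%) and 227 lower genes (2.21%). With the replicate block, 15 genes were higher in KO, 0.146% of those tested, and 14 were lower, 0.136%. With the run of title numbers as a block (series block), 16 genes were higher (0.156%) and 12 lower (0.117%), and within replicates 1 and 2 alone 17 were higher (0.166%) and 16 lower (0.156%). Of the 15 higher and 14 lower genes, 10 and 8 were also called within replicates 1 and 2, and Apoe, Eno2, Gbgt1, Ier3, Sema4c, Cd34, F11r, Hsd17b11, Lad1, Lsp1 and Tlr6 were not. For 1318 genes, 12.8%, the 3 KO and 3 WT arrays did not overlap, 609 with KO higher (5.94%) and 709 with KO lower (6.91%). The median difference of all genes was -0.01.

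**Figure D1:**
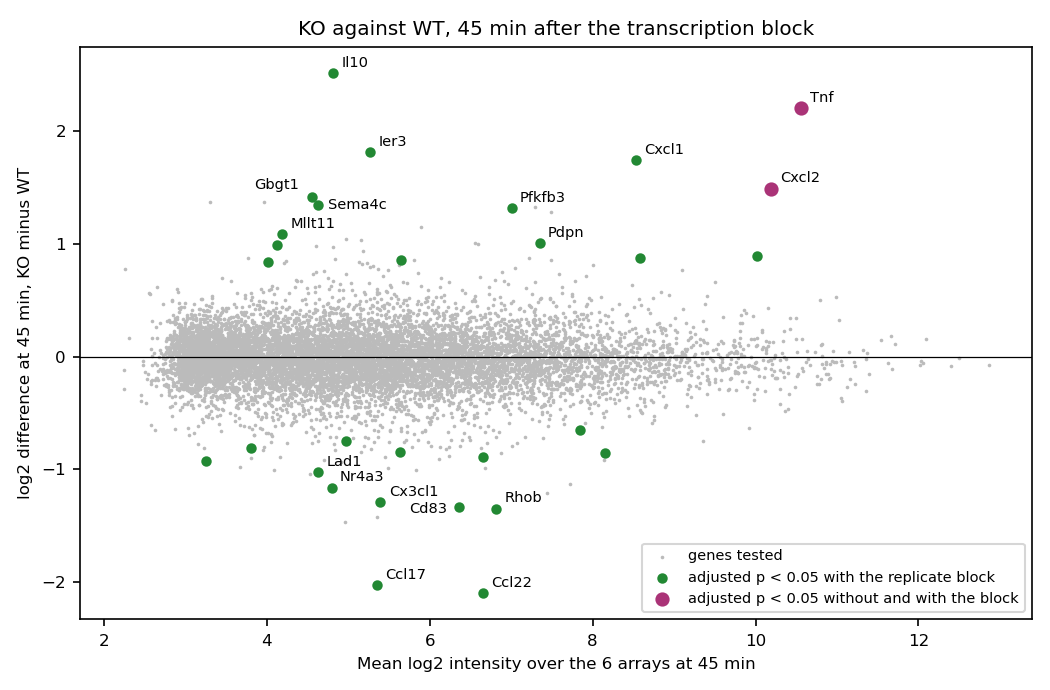
Difference between KO and WT at 45 min (vertical axis, log2) against the mean log2 intensity of the 6 arrays at 45 min (horizontal axis), 1 point per gene tested. Tnf and Cxcl2, at 2.20 and 1.49, passed with and without the replicate block; the green points are the other 27 genes that passed with the block, reaching -2.10 at Ccl22.

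Tnf encodes the cytokine TNF and is the best-known mRNA bound by tristetraprolin. Its intensities at 45 min were 845, 808 and 514 in WT and 3388, 2847 and 3557 in KO. The lowest KO array was more than 3 times the highest WT array. The difference was 2.20 ± 0.18 (95% interval 1.82 to 2.59), a 4.61-fold higher level in KO, with a limma adjusted p of 8.08e-06 without and 6.16e-06 with the block. Before the block the arrays held 3501, 3810 and 3657 in WT and 3925, 4211 and 4391 in KO, a difference of 0.19 ± 0.18 (adjusted p 0.838). WT cells thus had 19.3% of their Tnf signal left at 45 min (14.8% to 25.2%), and KO cells 77.9% (59.8% to 102%). The difference between the changes, called the decay difference below, was 2.01 ± 0.26 with a limma adjusted p of 0.00472. Tnf was the only gene past the threshold for the decay difference in this fit (1 of 10258, 0.00975%), and 0 genes passed in the opposite direction, with 74 (0.721%) and 113 (1.1%) at an unadjusted p under 0.05. Centring on ribosomal protein genes ended the call of the decay difference (1.85, adjusted p 0.938), and leaving out WT 0 min replicate 3 gave 79 genes with a lower decay difference.

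Cxcl2 and Cxcl1 encode chemokines that attract neutrophils through the receptor CXCR2. Cxcl2 measured 774, 805 and 549 in WT at 45 min and 1731, 2169 and 2016 in KO. Every KO array held more than 2 times the highest WT level. The difference was 1.49 ± 0.23, a 2.81-fold higher level in KO (limma adjusted p 0.0344, and 0.00226 with the block). It did not pass without the block when any 1 of the 6 arrays was left out, with adjusted p-values of 0.0915 to 0.351, when the fit held the 6 arrays alone (0.0671), or with ribosomal or housekeeping centring (0.0998 and 0.0882). At 0 min Cxcl2 measured 1731, 1538 and 1750 in WT and 2122, 2111 and 1913 in KO. All KO arrays were thus already higher, by 0.29 ± 0.23 (limma adjusted p 0.798). Cxcl2 retained 41.9% of its 0 min signal in WT (29.8% to 58.9%) and 96.0% in KO (68.2% to 135%), and its decay difference was 1.20 ± 0.33 (unadjusted p 0.00208, adjusted p 0.99997).

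Cxcl1 intensities were 203, 169.6 and 239.5 in WT and 570.5, 486 and 1119 in KO. Replicate 3 was the highest array in both genotypes, and the genotypes did not overlap. The difference of 1.75 ± 0.35, 3.35-fold, passed only with the block (limma adjusted p 0.00226, against 0.128 without it). At 0 min the genotypes overlapped, with a difference of 0.19 ± 0.35, and the signal left at 45 min was 31.2% in WT and 91.8% in KO. Cxcl3, another chemokine of this group, differed by -0.45 ± 0.28, and by -0.69 ± 0.28 at 0 min, and its arrays overlapped.

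Il10, which encodes an anti-inflammatory cytokine, had the largest difference of all genes tested, 2.52 ± 0.66. Its intensities were 6.26, 9.86 and 26.4 in WT and 36.9, 59.5 and 139 in KO. Replicate 3 was again the highest array in each genotype, and WT replicate 1 was below the signal limit. Within replicate numbers the differences were 2.56, 2.59 and 2.40. The adjusted p was 0.436 without the block and 8.58e-05 with it (limma). The genotypes overlapped at 0 min (difference 0.83 ± 0.66), and 18.2% of the signal was left in WT at 45 min (6.92% to 47.8%) against 58.6% in KO (22.3% to 154%).

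Ier3 encodes an early response protein that acts in cell survival. It measured 23.7, 17.4 and 21.2 in WT and 65.0, 42.5 and 138 in KO. The difference was 1.81 ± 0.38 (limma adjusted p 0.170, and 0.0104 with the block). Ier3 was already higher in KO on all arrays at 0 min, by 1.18 ± 0.38, and its decay difference was 0.63 ± 0.54. Tnf was also higher on all KO arrays at 0 min, but only by 0.19 ± 0.18. Plau encodes the protease urokinase, which activates plasminogen. Its WT intensities lay between 32.9 and 41.9 and its KO intensities between 61.8 and 73.6, a difference of 0.86 ± 0.15 (adjusted p 0.0878, and 0.0104 with the block). At 0 min it differed by 0.15 ± 0.15, and 51.5% of the signal was left in WT and 84.4% in KO. Its decay difference of 0.71 ± 0.22 had an unadjusted p of 0.00469 and an adjusted p of 0.99997.

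**Figure D2:**
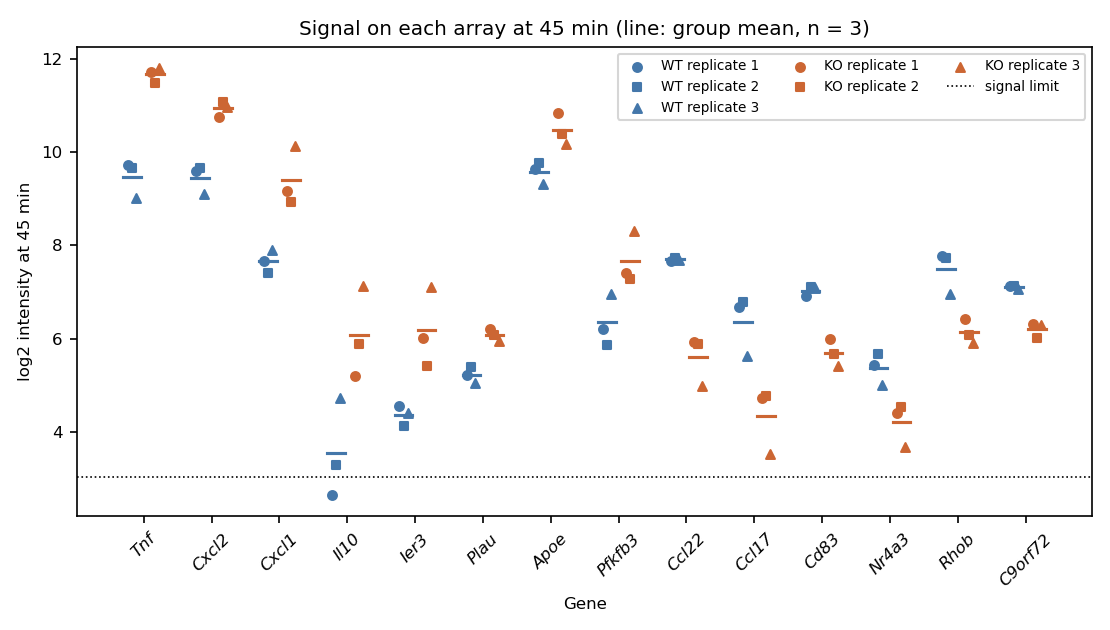
log2 intensity at 45 min on each of the 3 WT (blue) and 3 KO (orange) arrays for 14 of the 29 genes that passed with the replicate block; marker shapes give the replicate number, horizontal lines the group means, and the dotted line the signal limit of 3.03. The genotypes do not overlap in any of these genes, and replicate 3 (triangles) is the highest array of both genotypes for Cxcl1, Il10 and Pfkfb3.

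The other 9 genes that were higher in KO with the block had varied roles. Apoe, which carries lipids out of macrophages, measured 637 to 870.0 in WT and 1155 to 1829 in KO (0.90 ± 0.24, limma adjusted p 0.0104 with the block). Pla2g7, which encodes the enzyme that inactivates platelet-activating factor, measured 226 to 428 in WT and 460.3 to 613 in KO (0.88 ± 0.37, adjusted p 0.0231 with the block). Both were the brightest genes of these 9, well above the signal limit. Mertk, a receptor for engulfing apoptotic cells, differed by 0.84 ± 0.17 and the membrane glycoprotein gene Pdpn by 1.01 ± 0.31.

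Pfkfb3, whose enzyme makes an activator of glycolysis, measured 58.7 to 125 in WT and 156 to 317 in KO (1.32 ± 0.51, limma adjusted p 0.00226 with the block). Eno2, a glycolytic enolase, differed by 0.99 ± 0.20. The remaining genes were Gbgt1, a glycosyltransferase gene (1.41 ± 0.25), the semaphorin gene Sema4c (1.35 ± 0.41) and Mllt11 (1.09 ± 0.23). Without the block, none of these 9 passed, with adjusted p-values from 0.0878 for Gbgt1 to 0.9998 for Pfkfb3 and Pla2g7. WT means of Gbgt1, Eno2, Mertk, Mllt11 and Sema4c lay within 1 log2 unit of the signal limit, where background compresses a difference.

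These 9 genes had differences of 0.63 to 1.17 before transcription was blocked. At 0 min the values were 0.96 ± 0.24 for Apoe, 0.86 ± 0.37 for Pla2g7, 1.17 ± 0.51 for Pfkfb3 and 1.17 ± 0.41 for Sema4c. The decay differences of the 9 genes ran from -0.06 ± 0.34 for Apoe to 0.36 ± 0.28 for Eno2, with 0.34 ± 0.33 for Mllt11 and 0.30 ± 0.36 for Gbgt1, and none passed. With the block, 5 of the 15 genes higher at 45 min also passed at 0 min, namely Apoe, Pdpn, Pfkfb3, Pla2g7 and Sema4c, in a comparison with 19 higher genes (0.185%) and 13 lower genes (0.127%). Without the block, 0 genes passed at 0 min in either direction (387, 3.77%, and 390, 3.8%, at an unadjusted p under 0.05). Within replicates 1 and 2, 840 genes were higher at 0 min (8.19%) and 101 lower (0.985%). Leaving out WT 0 min replicate 3 alone gave 738 higher and 77 lower genes, and leaving out any other of the 6 arrays gave 0. All 15 were above 0 at 0 min, as were 49.9% of all genes tested, and for 10 of the 15 the KO arrays lay above the WT arrays there too, as in 3.15% of all genes. In WT, 18.2% to 51.5% of the 0 min signal of Tnf, Cxcl2, Cxcl1, Il10, Ier3 and Plau was left at 45 min, against 69.3% to 97.3% for the 9 genes above. The WT 45 min levels in these shares also entered the calls, and no rule set in advance divided the genes. This contrast is therefore a description and not a test.

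Among the 14 genes lower in KO, 3 encode chemokines. Ccl22, a ligand of the receptor CCR4, measured 204, 214 and 207 in WT and 61.2, 59.0 and 31.7 in KO. The WT arrays were nearly alike and every KO array was below every WT array by a wide margin. The difference was -2.10 ± 0.43, so that WT was 4.29-fold higher (limma adjusted p 0.129, and 0.00489 with the block). At 0 min it was -2.26 ± 0.43, and the signal left at 45 min was 97.7% in WT and 109% in KO. Ccl17, the other CCR4 ligand, measured 103, 110.1 and 49.5 in WT and 26.4, 27.2 and 11.6 in KO, with replicate 3 lowest in both genotypes (-2.03 ± 0.80, adjusted p 0.00416 with the block, and -1.75 ± 0.80 at 0 min). Cx3cl1, which encodes the membrane-bound chemokine fractalkine, differed by -1.29 ± 0.60 (adjusted p 0.0366 with the block) and by -1.75 ± 0.60 at 0 min.

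Cd83, a surface protein of activated antigen-presenting cells, measured 120.4, 137 and 135 in WT and 64.1, 51.1 and 42.6 in KO. The difference of -1.33 ± 0.26 passed with the block (limma adjusted p 0.0104, against 0.128 without) and was -1.16 ± 0.26 at 0 min. Ccl17, Ccl22 and Cd83 are also well expressed by dendritic cells, and of 9 dendritic cell markers only Zbtb46 and Itgax were above the signal limit in each genotype. Their mean log2 intensities in WT and KO were 3.30 and 3.39 for Zbtb46 and 5.63 and 5.34 for Itgax. The other 7, Flt3, Xcr1, Clec9a, Cd209a, Siglech, Ccr7 and Dpp4, were below the limit in both. The summed intensity of the 9 markers was 87.1 to 94.9 in WT and 74.7 to 87.5 in KO, and its part in the chemokine difference was not tested.

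The other genes lower in KO had varied roles. Rhob, a small GTPase gene, measured 124 to 219.5 in WT and 60.4 to 85.6 in KO (-1.35 ± 0.44). In KO replicate 2 its signal rose from 67.7 at 45 min to 124 at 90 min although transcription was blocked. Nr4a3, which encodes an immediate early nuclear receptor, differed by -1.16 ± 0.26 and Lad1 by -1.03 ± 0.22. Cd34, a sialomucin gene, differed by -0.92 ± 0.20, with all KO arrays below the signal limit. 3110009E18Rik, whose KO level was within 1 log2 unit of that limit, differed by -0.81 ± 0.20. Lsp1, an actin-binding protein of leukocytes, differed by -0.86 ± 0.31, F11r, a junctional adhesion molecule, by -0.84 ± 0.22 and Hsd17b11, a lipid droplet dehydrogenase, by -0.65 ± 0.23. With the block their limma adjusted p-values ran from 0.00416 for Nr4a3 to 0.0408 for Rhob, Lsp1 and Hsd17b11. At 0 min these 8 genes had differences of -1.56 for Rhob, -0.79 for Nr4a3, -0.75 for Lad1, -0.73 for Cd34, -0.98 for Lsp1, -0.74 for F11r, -0.46 for 3110009E18Rik and -0.44 for Hsd17b11. None of the 14 lower genes passed without the block. F11r and Lsp1 did not pass with the series block.

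C9orf72 and Tlr6 were lower in KO at 45 min with little difference at 0 min. C9orf72, whose protein acts in endosomal traffic and autophagy, measured 140.1, 139.6 and 133.7 in WT and 80.02, 64.5 and 78.8 in KO. At 0 min its arrays overlapped with a difference of -0.12 ± 0.18, and 90.7% of the signal was left in WT against 52.98% in KO. The 45 min difference was -0.90 ± 0.18 (limma adjusted p 0.128, and 0.0378 with the block), and the decay difference of -0.78 ± 0.25 had an unadjusted p of 0.00613 and an adjusted p of 0.99997. Tlr6, which recognises bacterial lipopeptides together with Tlr2, measured 52.0, 44.1 and 29.4 in WT and 31.2, 28.1 and 16.1 in KO. Its genotypes overlapped, since replicate 3 was the lowest array of both, and the difference of -0.75 ± 0.37 passed only with the block (adjusted p 0.0414). At 0 min Tlr6 differed by 0.14 ± 0.37.

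Some genes with small p-values passed neither without nor with the replicate block. Maff, a basic leucine zipper factor, was higher in KO by 0.74 ± 0.18 without overlap (limma adjusted p 0.429, and 0.128 with the block) after a 0 min difference of 0.02, with 54.7% of its signal left in WT and 90.1% in KO. The matrix protease gene Mmp14 differed by 0.77 ± 0.20, its partner Timp2 by 0.66 ± 0.17, the macrophage marker Aif1 by 0.75 ± 0.17, Clec4a1 by 0.73 ± 0.19 and Ust by 0.81 ± 0.21, all without overlap. At 0 min these 5 genes differed by 0.90, 0.44, 0.70, 0.48 and 0.53. On the lower side, Fat3, an atypical cadherin gene, differed by -0.63 ± 0.16 at 45 min and 0.28 ± 0.16 at 0 min (decay difference -0.91 ± 0.22, unadjusted p 0.000725, adjusted p 0.99997). Plat, which encodes tissue plasminogen activator, differed by -0.67 ± 0.17 (-0.79 at 0 min), and Pde12, a poly(A)-degrading mitochondrial enzyme, by -0.83 ± 0.20 (-0.35 at 0 min). Slc24a5, Dcbld2, Fkbpl and Tmtc2 differed by -0.94 to -0.78, also without overlap, and by -0.94 to -0.29 at 0 min. Within replicates 1 and 2, Aif1, Clec4a1, Slc24a5 and Dcbld2 passed.

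For 13 of the 14 lower genes the difference was below 0 at 0 min as well, as for 50.1% of all genes, and for 9 the KO arrays lay below the WT arrays there, as in 7.14% of all genes. With the block, 7 of the 14 also passed at 0 min: Ccl17, Ccl22, Cd83, Cx3cl1, F11r, Lsp1 and Rhob.

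**Figure D3:**
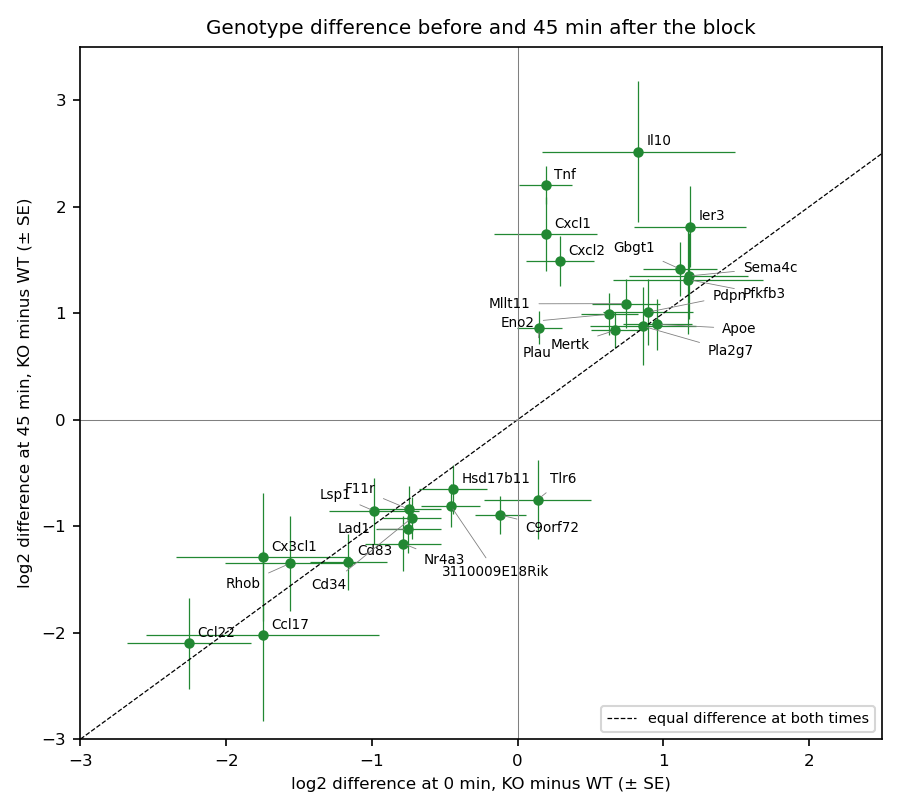
log2 difference between KO and WT at 45 min (vertical axis) against that at 0 min (horizontal axis) for the 29 genes that passed at 45 min with the replicate block; lines are standard errors of the fit without the block and the dashed line marks equal differences. Tnf, Cxcl1, Cxcl2 and Plau lie above the line with 0 min differences of 0.15 to 0.29, while Apoe, Pla2g7, Ccl17 and Ccl22 lie close to it.

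Of 26 reported targets of tristetraprolin, a list that includes Zfp36 itself, 25 were tested. In all, 18 were above 0 (47.1% of all genes tested were), and the list's median difference was 0.38 against -0.01 for all genes. With the block 5 were higher (Tnf, Cxcl2, Cxcl1, Il10 and Ier3) and 0 lower, and without it 2 were higher. The KO arrays lay above the WT arrays in 8 of the 25 and below them in 2, beside 5.94% and 6.91% of all genes. The median was 0.23 to 0.42 when 1 array was left out and 0.23 in replicates 1 and 2 alone.

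Several well-known targets did not pass. Csf2, the gene of the growth factor GM-CSF, measured 10.4, 10.2 and 10.7 in WT and 12.9, 8.14 and 13.4 in KO. Both genotypes were close to the signal limit, where further loss cannot be seen, and the difference was 0.10 ± 0.32. Because Csf2 started lower in KO (-0.97 ± 0.32 at 0 min), 23.0% of its signal was left in WT and 48.2% in KO (decay difference 1.07 ± 0.46, unadjusted p 0.0319, limma adjusted p 0.99997). Il6, a cytokine of the acute phase response, measured 203, 210.2 and 121 in WT and 218, 272 and 99.6 in KO, overlapping (0.06 ± 0.54, and -0.59 ± 0.54 at 0 min). The interleukin 1 genes Il1a and Il1b differed by -0.14 ± 0.35 and -0.08 ± 0.32, Ccl2 by 0.46 ± 0.44 and Ccl3 by 0.16 ± 0.13. Ptgs2, which encodes the inducible prostaglandin synthase, differed by 0.50 ± 0.31 without overlap, and Dusp1, a phosphatase that turns off p38, by 1.03 ± 0.67 with overlap. The 0 min differences were -0.18 for Il1a, -0.16 for Il1b, 0.03 for Ccl2, 0.00 for Ccl3, 0.39 for Ptgs2 and 0.97 for Dusp1.

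Il12b, a subunit of interleukin 12, was the reported target with the lowest difference. It measured 940, 962 and 675 in WT and 654, 523 and 374 in KO. All WT arrays were above all KO arrays, and the difference of -0.75 ± 0.34 did not pass (limma adjusted p 0.9998, and 0.164 with the block). At 0 min it was -0.12 ± 0.34.

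Levels left at 45 min were then compared for the shortest-lived mRNAs. In 39 genes the mean change of both genotypes from 0 to 45 min was -1 or lower on the log2 scale, that is, 50% or less of the signal was left on average. The median share left was 40.7% in WT and 38.3% in KO, and 19 of the 39 had more left in KO. The median decay difference was -0.01, beside -0.00 for all genes, and for 11 of the 39 a level at 45 min was within 1 log2 unit of the signal limit. Tnf was the only one of them past the threshold for the decay difference in the limma fit. A limit on these shares, and on the 45 min KO levels of further genes, is KO replicate 2. There Dusp1, Zfp36, Socs3 and Trim13 rose from 45 to 90 min although transcription was blocked, Dusp1 from 17.2 to 60.6. So did Irf1, Plk2, Ier3, Tnfsf9, Rhob, Rel and Nfkbiz, Irf1 from 126 to 447. In KO replicates 1 and 3 all of these genes fell. Except for Rhob and Rel, KO replicate 2 was the lowest KO array at 45 min, which lowers KO levels and shares. The cause of the rise was not tested.

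Dusp2, a nuclear phosphatase of MAP kinases, had the smallest share left in both genotypes, 12.8% in WT and 13.4% in KO. Its log2 level at 45 min, 3.64 in WT and 3.46 in KO, was within 1 unit of the signal limit, where further loss cannot be seen. Dusp1 held 16.2% and 16.8%, and Socs3, an inhibitor of cytokine receptor signalling, 22.0% and 27.3%. The confidence intervals of these shares overlapped widely, for Dusp1 6.09% to 42.9% in WT and 6.34% to 44.7% in KO. KO replicate 2 was low for both Dusp1 and Socs3 at 45 min. In replicates 1, 2 and 3 the KO-minus-WT differences were 1.36, -0.28 and 2.01 for Dusp1. For Socs3 they were 1.01, -0.86 and 1.33. The mean 0 min differences were 0.97 and 0.18. The NF-kB feedback inhibitors Tnfaip3 and Nfkbia held 27.0% and 40.7% in WT and 22.9% and 32.4% in KO (decay differences -0.24 and -0.33, not passing). Nfkbid, of the same group but not among the 39 genes, held 47.0% in WT and 67.3% in KO (0.52 ± 0.30, not passing). Nfkbid was lower in KO at 0 min (-0.92) and at 45 min (-0.40), and it is among the genes beside Zfp36 on chromosome 7 that are described below. Its KO log2 level at 45 min, 3.68, was within 1 unit of the signal limit. Trim13, a ubiquitin ligase gene singled out here after its values were seen, held 66.7% in WT and 30.0% in KO (decay difference -1.15 ± 0.71, unadjusted p 0.122, limma adjusted p 0.99997). Its 45 min differences in replicates 1, 2 and 3 were -1.15, -2.43 and -0.83.

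**Figure D4:**
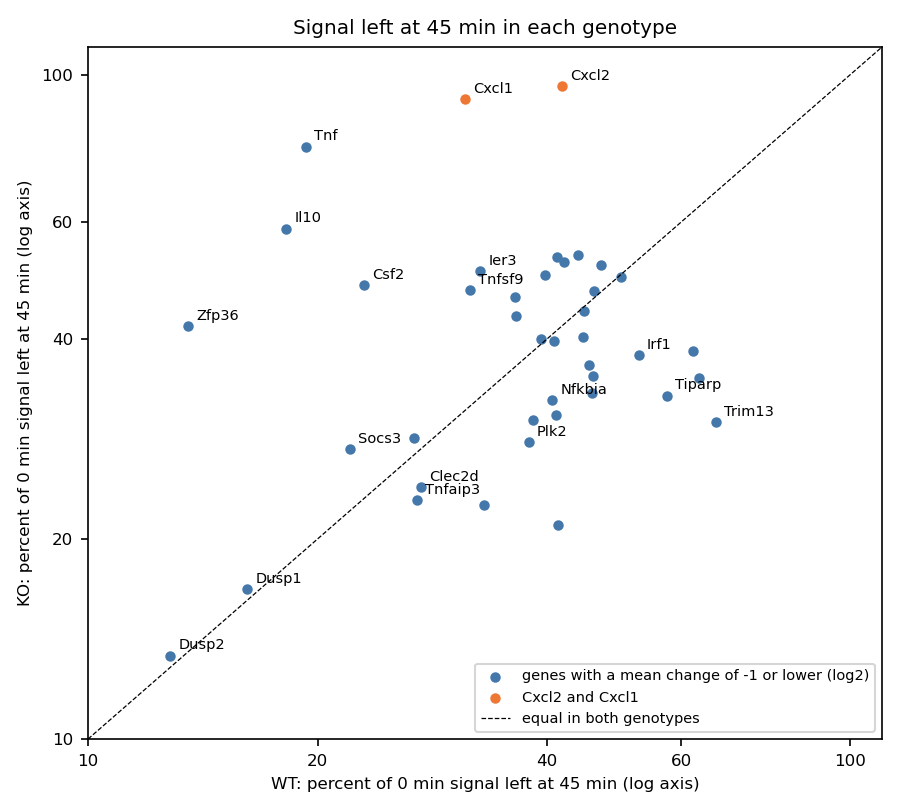
Percent of the 0 min signal left at 45 min in KO (vertical axis) and WT (horizontal axis), both on log axes, for the 39 genes with a mean change of -1 or lower (blue) and for Cxcl1 and Cxcl2 (orange); the dashed line marks equal shares. Tnf, at 19.3% in WT and 77.9% in KO, and Il10 lie far above the line, whereas Dusp1 and Dusp2, the latter near the signal limit, lie on or near it. For Dusp1, KO replicate 2 was well below the other KO arrays at 45 min.

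Further gene groups were described by their counts and medians. Il10 and its response genes had the highest list median, 0.43, with 11 of 14 above 0 and 1 higher with the block, Il10 itself. Leaving out 1 array gave medians of 0.25 to 0.58. Within replicates 1 and 2 the median was 0.223, below the 0.229 of the reported targets. At 0 min the list median was 0.19, and the median decay difference was 0.15. Il4ra, the receptor subunit for interleukin 4 and a gene that this cytokine network induces, differed by 1.28 ± 0.68, and by 1.22 ± 0.68 at 0 min, with overlapping arrays (limma adjusted p 0.9998, 0.0533 with the replicate block and 0.0380 with the series block). Of 19 glycolysis and hypoxia response genes 14 were above 0, with a median of 0.11 and 1 call with the block, Pfkfb3. The median was 0.0094 to 0.19 when 1 array was left out and 0.026, with 10 of 19 above 0, within replicates 1 and 2. Of 16 phagocytic and scavenger receptor genes 9 were above 0, with a median of 0.08 (0.025 to 0.22 when 1 array was left out) and 1 call with the block, Mertk.

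The 20 cytokines tested divided into 11 above and 9 below 0, with a median of 0.08 (0.014 to 0.13 when 1 array was left out, and -0.026 within replicates 1 and 2). For 18 chemokines the count was 9 on each side and the median -0.02, with 2 higher and 3 lower with the block. Among 22 immediate early genes, which LPS induces within minutes, 11 were above 0 and the median was -0.04. Ier3 was higher and Nr4a3 lower with the block. Centring on ribosomal protein genes turned both medians above 0, to 0.10 for the chemokines and 0.07 for the immediate early genes, and leaving out 1 array gave -0.10 to 0.10 and -0.19 to 0.024. Of 18 NF-kB subunits and feedback inhibitors 7 were above 0 (median -0.17) and 0 passed with or without the block in limma, with 1 lower at an unadjusted p under 0.05. The sign of that median turned when 1 array was left out (-0.19 to 0.096). The NF-kB subunit gene Rel differed by -0.63 ± 0.30 and the coactivator gene Nfkbiz by -0.57 ± 0.23, each without overlap and with 0 min differences of 0.07 and -0.08. Both rose from 45 to 90 min in KO replicate 2, a limit given above.

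Toll-like receptors and their adaptors lay mostly below 0, with 14 of 17 below (52.9% of all genes tested were), a median of -0.23 and 1 lower with the block, Tlr6. Tlr1, which also pairs with Tlr2, differed by -0.37 ± 0.16 at 45 min and 0.29 ± 0.16 at 0 min. The list median at 0 min was 0.14. Leaving out 1 array gave medians of -0.29 to -0.13 at 45 min, and centring on ribosomal protein genes -0.12. Cell cycle and mitosis genes had the lowest list median, -0.28, with 24 of 28 below 0, 11 without overlap below and 2 above (6.91% and 5.94% of all genes), and 0 past the threshold with or without the block (limma, 0 at an unadjusted p under 0.05). That median was -0.34 to -0.18 when 1 array was left out and -0.17 with ribosomal centring, and it was -0.25 at 0 min. Mki67, a proliferation marker, differed by -0.52 ± 0.39 and the cyclin gene Ccnd2 by -0.61 ± 0.48, both with overlap, and by 0.18 and -0.47 at 0 min.

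Ribosomal protein genes lay mostly below 0, with 24 of 27 below 0, a median of -0.14 (-0.22 to -0.060 when 1 array was left out) and 0 past the threshold (limma, 0 at an unadjusted p under 0.05). Of 33 genes of the deadenylation and mRNA decay machinery, through which tristetraprolin acts, 27 were below 0 with a median of -0.10 (-0.20 to -0.066 when 1 array was left out), and 0 passed (limma, 0 at an unadjusted p under 0.05). With centring on ribosomal protein genes, which moved the median of all genes to 0.10, the decay machinery median was 0.01. Of 26 interferon-stimulated genes 13 were above 0, with a median of -0.00. Single arrays moved this list far in either direction: its median ran from -0.32 to 0.45 when 1 array was left out, and 18 of 26 were above 0 within replicates 1 and 2.

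**Figure D5:**
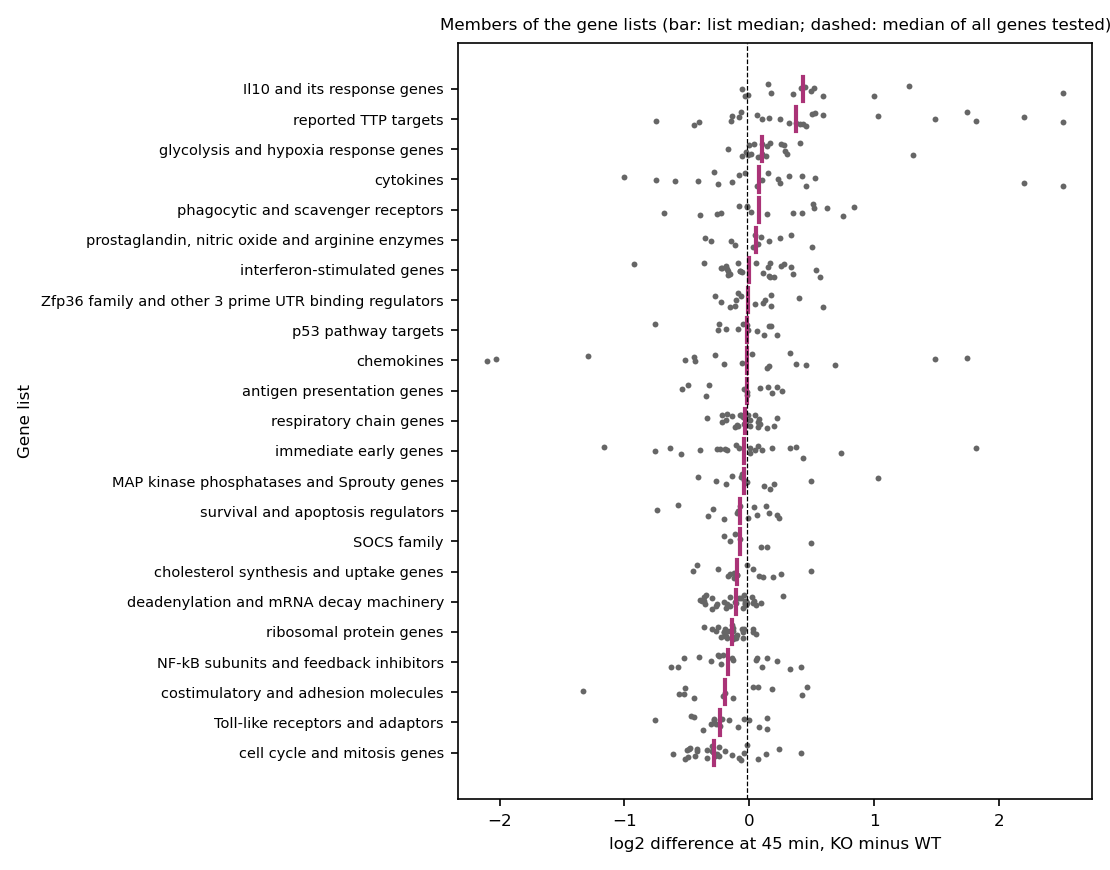
log2 difference between KO and WT at 45 min for the members of 23 gene lists, 1 point per gene; purple bars are list medians and the dashed line the median of all genes tested, -0.01. Il10 and its response genes (0.43) and the reported targets (0.38) have the highest medians and cell cycle genes (-0.28) the lowest; the 12 medians from -0.10 to -0.00 turn above 0 when arrays are centred on ribosomal protein genes.

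Genes beside Zfp36 on chromosome 7 were examined because chromosome next to a targeted gene can differ between a knockout line and its controls. Of the 100 tested genes nearest by order, 50 on each side, 49 were above 0, the median difference was -0.00 and 0 passed at 45 min with or without the block. At an unadjusted p under 0.05 in limma, 3 were higher and 4 lower, beside 1.77% and 2.21% of all genes. The arrays did not overlap for 6 higher and 8 lower genes, beside 5.94% and 6.91% of all genes. Gmfg, a regulator of actin branching, differed by 0.81 ± 0.21 and the mitochondrial ribosomal gene Mrps12 by -0.98 ± 0.22, both with an adjusted p of 0.0765 with the block. Mrps12 passed at 45 min within replicates 1 and 2 (limma adjusted p 0.00497) and at 0 min with the block (0.0260). Its 45 min differences in replicates 1, 2 and 3 were -1.22, -1.44 and -0.28. The KO log2 level of Mrps12 at 45 min, 3.18, was within 1 unit of the signal limit. Axl, a receptor kinase related to Mertk, differed by -0.69 ± 0.22, and all 3 genes were without overlap and had the same direction at 0 min (0.65, -1.22 and -0.87).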

How the data were processed

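The 18 arrays were Affymetrix Mouse Gene ST 1.0 arrays. The authors summarised them by RMA with Affymetrix Expression Console, per the submitters' processing notes, with versions and genome build not given in the sources used here. Judged by their range, the deposited intensities are linear. RMA brings arrays to a shared distribution, so values are relative to the average mRNA and a general loss is not visible. The file holds no detection calls, and the number of arrays limits the precision.

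The log2 was taken without an offset. The platform annotation gave 1 symbol for 21039 of 25138 rows, several for 1485 and none for 2614, and only the first were named, updated through RefSeq (GRCm38.p6), with 84 older symbols kept. The brightest row stood for a gene. A gene was tested if any group mean reached the median over rows (log2 3.03).

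Group means were fitted over all 18 arrays with limma 3.58.1 in R 4.3.3, with Benjamini-Hochberg adjustment at 0.05. Percentages left are 2 to the power of the fitted change, with 95% intervals. The deviations of same-numbered arrays from their group means correlated at 0.389, 0.197 and 0.527 at 45 min and at 0.361, 0.156 and 0.369 at 0 min, so the numbers were taken to pair KO and WT there. At 45 min, arrays numbered 1 and 2 also correlated across numbers (0.258 and 0.279), and number 3 against the others gave -0.463 to -0.298, so the number and the run of titles cannot be told apart as the source. For the decay difference the lowest same-number correlation was 0.0792, too low to treat it as paired.

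The gene lists and named genes were chosen with earlier results of these data known. Named were Zfp36, the 15 smallest p-values in each direction as candidates, leading members of the lists, and the reported targets and chemokines. Genes passing only with the block, Il4ra, Tlr1, Trim13, Gmfg and Axl were added after their values were seen. The procedure was tested on simulated data. Alternatives covered blocks, arrays used, filters, offset, normalization, centring, row choice and each array left out.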

Additional observations from a re-analysis of the deposited data

Results flagged for a closer look

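The KO-minus-WT difference of Tnf was not the same at the 2 times: it was 2.20 at 45 min and 0.19 at 0 min, and the test of the difference between them gave 2.01 ± 0.26 (limma adjusted p 0.00472). Over 24 alternatives this value ranged from 1.76 to 2.15 and passed in 23, with adjusted p-values from 0.00136 to 0.938.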

How the results depend on the processing

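At 45 min, 2 genes were higher in KO. The count was 15 with the replicate block, 16 with the title-number series block, 17 within replicates 1 and 2, and 1 with only the arrays compared, with ribosomal or with housekeeping centring, and with each of the 6 arrays left out. Tnf passed in all 18 alternatives. The count of lower genes, 0, was 14, 12 and 16 with the replicate block, the series block and replicates 1 and 2, and 0 with each array left out. At 0 min, 0 genes were higher: 19 with the replicate block, 23 with the series block, 840 within replicates 1 and 2, 3 with ribosomal centring, and 0 to 738 with 1 array left out. The count of lower genes was 13, 13 and 101 under those blocks and within replicates 1 and 2, and 0 to 77 with 1 array left out. The decay difference had 1 higher gene, 0 with ribosomal centring and 1 with each array left out; lower genes numbered 0 to 79. The 738, 77 and 79 all came without WT 0 min replicate 3. The replicate block changed no call of the decay difference. Of genes that did not pass, Csf2 turned to -0.0093 within replicates 1 and 2 and ran from -0.028 to 0.33 with 1 array left out. With 1 array left out, Il1a ran from -0.48 to 0.040, Il6 from -0.23 to 0.49 and Il1b from -0.39 to 0.12, and Il1b was 0.034 with ribosomal centring. The cause of these moves was not tested. Genes near the signal limit cannot show further loss.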
